A study of Mus musculus with 2 samples.

Results

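CTCF is a zinc finger protein that binds a long directional DNA motif. Chromatin loops formed with cohesin tend to end at pairs of CTCF sites whose motifs point toward each other, so the strand of a motif is part of what a site is known to do. At promoters CTCF is known both for binding next to the transcription start site (TSS) and for bringing distant enhancers close to it, and many mouse promoters lie in CpG islands, stretches rich in C, G and the dinucleotide CG. The sites described here are CTCF peaks at the promoters of protein-coding genes that have no second protein-coding TSS facing the other way nearby.

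The data are chromatin immunoprecipitation sequencing (ChIP-seq) peaks of CTCF from lungs of B6NCrl mouse embryos aged 14.5 days, of both sexes, pulverized and pooled over many dissections. The series held 1 group of 2 samples, replicates 1 and 2, without a second condition, and both came from the same pooled biosample, so their spread may be technical only. Whole lung mixes epithelium, mesenchyme, vessels and blood, and a peak does not say which of these cells were bound. Members were the summits of the optimal list, which the authors thresholded by the irreproducible discovery rate (IDR), on chromosomes 1 to 19 and X, that lay within 1 kb of the TSS of a GENCODE M21 protein-coding gene. Summits with a second protein-coding TSS on the opposite strand within 1 kb were left out. The rule kept 5533 of 54943 sites, or 10.1% (95% Wilson interval 9.82 to 10.3), and set 540 sites apart. These had a protein-coding TSS of each strand within 1 kb and are called sites between divergent promoters. It was not required that the genes point apart or that the summit lie between the TSSs. The members had as nearest TSS those of 4856 of 21755 protein-coding genes, so 22.3% of genes had a member. Of these genes 4225 had 1 member, 587 had 2, 42 had 3 and 2 had 4, and 66 members also had a second TSS of the same strand within 1 kb. Just inside the limit lay the sites of Cabin1 (signal 180.4) and Epha6 (33.6), each 1000 bp upstream, and just outside lay those of Bivm (142.8) and Taf8 (24.1), each at 1002 bp. Peak lists give no read numbers, so the depth behind each site is unknown. Intervals cover counting error only.

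The sequence under the sites is shown first because the motif has a direction. The motif matrix was 20 bases wide and was learned from sites over 1 kb from the gene start of any protein-coding gene, so that no member entered it. Starts of other transcripts and of non-coding genes were not considered, so some of its sites may lie at those. With all transcript starts 8553 sites, rather than 5533, were members. A second matrix was learned from the strongest 3000 of the 3126 promoter sites on odd-numbered autosomes. In all sequences below, written 5′ to 3′ along the motif, capitals mark positions 4 to 15, which run from the first to the last position with at least 1 bit of information in the first matrix. The consensus of each matrix was as follows, where away from promoters means over 1 kb from these gene starts:
Sites away from promoters: tggCCACCAGGGGGCactag
Promoter sites: cggCCACCAGGGGGCgccgg
The capital letters were the same in both, and of the others only the letters at positions 1, 16, 18 and 19 differed, each being C or G in promoter sites. The matrix from promoter sites carried 14.3 bits against 20.7 bits, so its positions were less sharply defined. The sets behind them were unlike in signal. The first was the strongest part of a far larger pool, and the second held nearly all promoter sites of its chromosomes, weak ones included. How much of the gap in bits comes from this was not tested.

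The strongest members lay near the top of the whole list. Med4 encodes a subunit of Mediator, which links transcription factors to RNA polymerase. Its site at chr14:73509770-73510098 on mm10, 91 bp upstream of the TSS, had a signal of 547.2 and ranked 18 among all optimal sites, with 310.7 in replicate 1 and 238.7 in replicate 2. Comtd1 followed with 542.2 at chr14:21848854-21849193, 45 bp upstream, with 283.4 and 258.4 in the replicates. The third was the site in an intron of Ccdc110 at chr8:45934724-45935115, 303 bp downstream of the TSS, with 513.96 (276.3 and 236.8). The next 7 were at Top1mt, a mitochondrial topoisomerase gene, Gins4, of the replicative helicase, Rrp1, which acts in ribosomal RNA processing, Piezo1, a mechanosensitive ion channel gene, Cirbp, a cold-inducible RNA-binding protein gene, Adprhl2, which removes ADP-ribose, and Mtnr1a, a melatonin receptor gene. Their signals ran from 500.5 down to 459.1. Of the 10 strongest sites, 9 lay upstream of the TSS, and all but that of Rrp1 held a motif match within 50 bp of the summit. These are the 9 matches, in order of signal:
Med4: tgcCCTGTAGATGGCgctag
Comtd1: cagCCACCGGGTGGCgagat
Ccdc110: tggCCACCAGAGGGCgcgct
Top1mt: gggCCGCTAGATGTCagtag
Gins4: tcgCCACAAGACGGCgctgc
Piezo1: cagCCCCCAGAGGGCgctgc
Cirbp: tggCCACTAGACGTCgccat
Adprhl2: gggCCACAAGGGGGCgctgt
Mtnr1a: tggACAGCAGGTGTCagcag
In 7 of the 9 the motif lay on the strand of the gene, pointing into it, and Ccdc110 and Cirbp were the exceptions.

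CTCF summits were concentrated just upstream of the TSS. Of the 5528 members not exactly at the TSS base, 3042 lay upstream and 2486 downstream, a downstream share of 44.97% (95% Wilson interval 43.7 to 46.3; exact binomial test against 50%, two-sided, Benjamini-Hochberg adjusted p = 1.79e-13 over 9 tests). Here 50% is a reference and not a neutral expectation. The rule used distance to the TSS and dropped summits near an opposite-strand TSS, and the TSS was the 5′ end of the gene. With all transcript starts the downstream share was 42.4%. Density peaked at 962 members per 100 bp between 50 and 100 bp upstream, stayed at 820 in the last 50 bp before the TSS and dropped to 516 in the first 50 bp after it. Beyond 500 bp it was 149.2 per 100 bp upstream and 185.8 downstream. Within 200 bp of the TSS lay 2280 members, or 41.2% of all, 1510 of them upstream and 765 downstream. The lean to the upstream side was stronger among strong sites, with 22.8% downstream among the members in the strongest 10000 optimal sites. By annotation, 3042 summits lay upstream of the gene, 1029 in introns, 864 in 5′ UTRs, 415 in coding exons and 35 in 3′ UTRs. Each was counted under the first of coding exon, UTR, other exon and intron that any transcript of the gene gave. A UTR was called 5′ only where it reached beyond the first coding base of all transcripts, and 3′ otherwise. Some of the 35 may therefore lie in 5′ UTRs of later transcript starts. In 139 members the summit lay in an exon of a non-coding transcript of the gene. In 9 it lay downstream of the TSS but in no transcript of the gene.

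**Figure D1:**
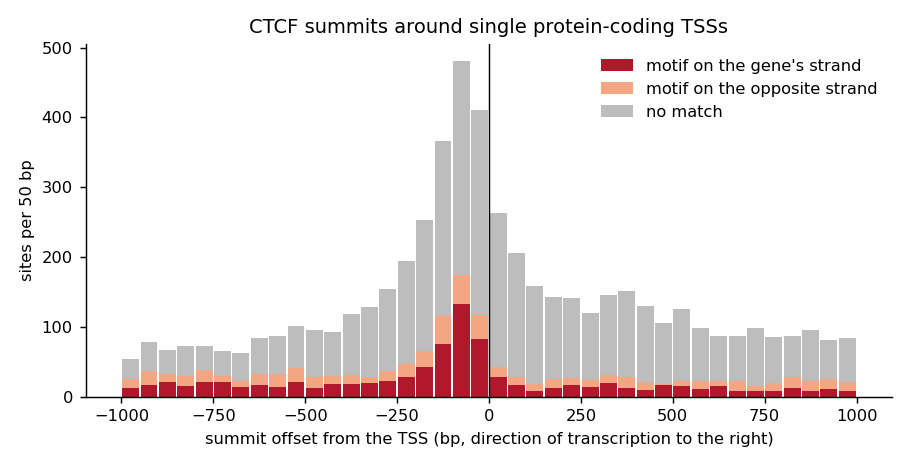
Number of member summits per 50 bp (y axis) by offset from the TSS in bp (x axis, direction of transcription to the right), with bars split into sites with a motif on the strand of the gene, sites with a motif on the opposite strand, and sites without a match. The tallest bar, 481 sites, lies 50 to 100 bp upstream.

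Signal, like density, was highest 50 to 100 bp upstream, but the order of the other positions differed. The median signal was 95.8 for members 50 to 100 bp upstream, 73.7 in the 50 bp before the TSS, 53.8 in the 50 bp after it and 37.3 at 50 to 100 bp downstream. The replicates gave 58.6, 47.2, 30.3 and 23.1 for these positions in replicate 1 and 50.3, 35.8, 23.6 and 18.3 in replicate 2, so both fell in the same order across the TSS. Far upstream, at 500 to 1000 bp, where density was lowest, the median was 61.8, above the 50 bp after the TSS and above the 52.5 at 200 to 500 bp upstream. All upstream members had a median of 66.6 and all downstream members 40.4. The strongest sites over 200 bp downstream, after Ccdc110, were in the 5′ UTR of Chd9, a chromatin remodeller gene, at chr8:90828675-90828958 (433.3, with 218.0 and 216.4 in the replicates) and in an intron of Rbm17, a splicing factor gene, at chr2:11603188-11603484 (426.3, with 236.2 and 190.99).

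**Figure D2:**
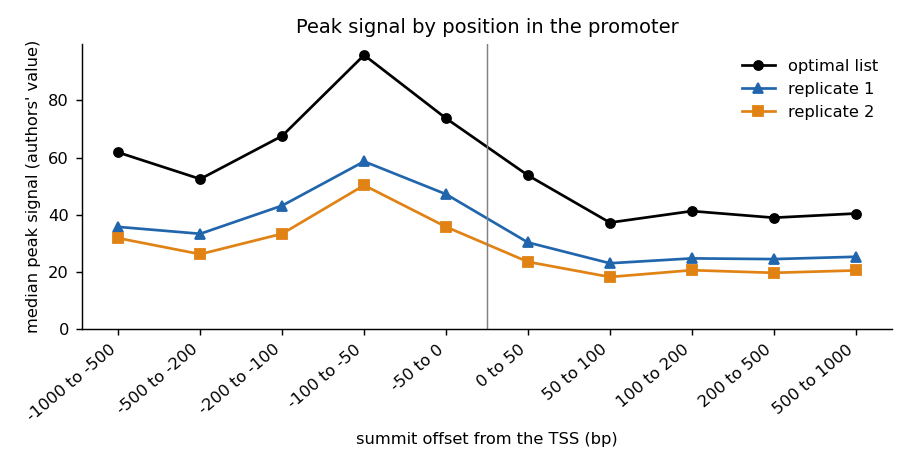
Median peak signal, as the authors' peak caller gave it (y axis), by offset of the summit from the TSS in bp (x axis), for the optimal list and for matched summits in each replicate. All 3 lines are highest at 50 to 100 bp upstream, at 95.8, 58.6 and 50.3; the lists are not scaled to each other.

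Compared with the rest of the list, promoter sites were weaker. Their median signal was 50.9 (quartiles 27.4 and 128.9), against 64.2 for sites over 1 kb from any protein-coding TSS and 40.7 for sites between divergent promoters. Above the median of all optimal sites, 62.3, lay 2414 of 5533 members, or 43.6%, where by construction 50% of all optimal sites do. The difference from the other sites was -7.08 percentage points (95% Newcombe interval -8.46 to -5.70; Fisher's exact test, two-sided, adjusted p = 4.94e-23). Against the 34.4% of divergent promoter sites it was 9.18 points higher (4.88 to 13.3; Fisher's exact test, adjusted p = 4.47e-05). The weakest 10% of all sites held 13.9% of members and the strongest 10% held 8.51%. Among the strongest 10000 sites alone neither difference passed: 0.195 points against other sites (Fisher's exact test, adjusted p = 0.942) and 7.04 points against divergent promoter sites (adjusted p = 0.436). Fisher's test takes sites as independent, and sites of 1 gene or neighbourhood need not be.

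The replicates ranked the members alike. A summit within 50 bp was listed in both replicates for 4779 of the 5533 members, a smaller share than the 51304 of all 54943 optimal sites. Across the members listed in both, the percentile of a site among all optimal sites differed by a median of 5.32 points. In 95% of them it differed by 22.8 or less. For all optimal sites these values were 4.56 and 20.8. Between the replicates' percentiles Spearman's rho was 0.931, and between their log signals Pearson's r was 0.925; both are correlations across sites of a list already selected for reproducibility. The conservative list also held 4591 members, which is 83.0% (82.0 to 83.9, Wilson), and 87.5% of all optimal sites. The 5 largest shifts were at Rasa3, Psmd12, Lbh, Tigd2 and Ociad1, all without a motif match and with optimal signals of 36.8 to 46.4. Rasa3, for example, stood at percentile 49.9 in replicate 1 (signal 36.2) and 0.0551 in replicate 2 (signal 2.95). Tigd2 alone of the 5 was higher in replicate 2, with 28.3 against 9.60.

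Most promoter sites lacked a match to the CTCF motif. Shares were taken on X and the even-numbered autosomes, which had no part in learning the matrix. A match centred no more than 50 bp from the summit was found in 626 of 2407 members, 26.0% (24.3 to 27.8, Wilson), while the share of all optimal sites there was 56.7%. The threshold let 1.00% of windows 1 kb from summits pass. Sites other than members held a match in 59.9%, a difference of -33.9 percentage points (Newcombe interval -35.7 to -32.0; Fisher's exact test, adjusted p = 8.54e-225). Sites between divergent promoters held one in 31 of 232, or 13.4%, which was 12.6 points below the members (7.38 to 16.8; Fisher's exact test, adjusted p = 1.35e-05). That difference did not pass among the strongest 10000 sites (14.8 points; Fisher's exact test, adjusted p = 0.224). Where genes had no optimal summit within 1 kb, windows at the members' offsets held a match in 24 of 7442, or 0.322%, and in 18 of 2500 CpG-rich ones. With the matrix learned from promoter sites, members matched in 842 of 2407 and the gap to other sites narrowed to -17.1 points. With a threshold that 0.1% of control windows pass, the gap was -10.4 points. There only 83 of 2407 members matched, so this gap is between smaller shares.

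At equal signal the gap remained visible. Among the weakest 10% of optimal sites 5.41% of members and 28.8% of other sites held a match, and among the strongest 10% 68.9% of members and 86.9% of other sites did. The difference lay between -39.0 and -18.0 percentage points in all 10 steps of signal, and its interval left out 0 in each. Members with a match had a median signal of 143.6 and members without one 39.4.

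**Figure D3:**
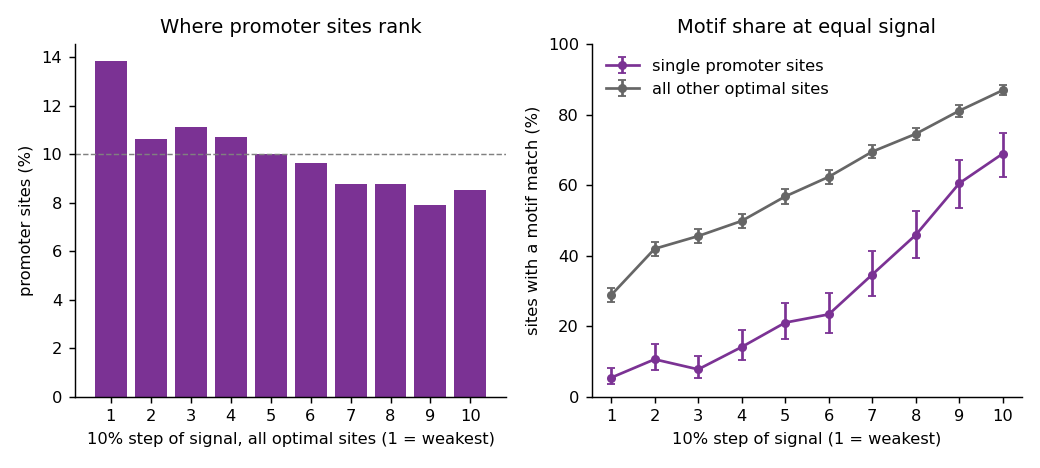
Left: share of members (%) in each 10% step of the signal of all optimal sites, with 13.9% in the weakest step and 8.51% in the strongest; the dashed line marks equal shares. Right: share of sites with a motif match (%) in each step for members and for all other optimal sites on even-numbered autosomes and X, with 95% Wilson intervals; members lie below in every step.

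Upstream members held the motif more often than downstream ones, in 413 of 1325 or 31.2% against 213 of 1081 or 19.7%. The difference was 11.5 percentage points (Newcombe interval 7.99 to 14.9; Fisher's exact test, adjusted p = 2.55e-10). Over all chromosomes the share fell from 36.4% at 50 to 100 bp upstream to 16.3% in the first 50 bp downstream and 14.1% in the next 50, and it was 43.3% at 500 to 1000 bp upstream. Also over all chromosomes, sites in 5′ UTRs matched in 16.3% and those in introns in 23.3%. Within the strongest 10000 sites the direction turned without passing, at -9.43 points (Fisher's exact test, adjusted p = 0.177). With transcript starts in place of gene starts the difference was 6.22 points. At the stricter motif threshold it was 1.73 points, where only 56 of the 1325 upstream members matched.

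Members without a match were compared by their best window. The best window of the 4047 members without a match had a median score of 1.88 (quartiles -3.22 and 6.84), on a log2 scale on which the threshold was 11.8. Other unmatched sites had 5.44 when over 1 kb from a protein-coding TSS and 1.21 between divergent promoters. Members without a match at CpG-rich promoters had 1.57, against -5.98 in CpG-rich promoters without a site, and windows 1 kb from summits had -9.08. On X and the even-numbered autosomes, which the matrix learned from promoter sites did not use, 297 of 1781 members without a match, or 16.7%, passed that matrix's own threshold. The 5 strongest members without a match were at Rrp1 (497.8), Vps18 (458.7), which acts in vesicle tethering, Trabd2b (453.6), an inhibitor of WNT ligands, Tmem270 (411.2) and Ankrd39 (405.1). Both replicates gave these sites high signals, from 225.3 to 276.3 in replicate 1 and from 170.4 to 225.8 in replicate 2. Their best windows, all under the threshold, show how far each lies from the consensus:
Rrp1: cggCCACTGAGAGGCggtag
Vps18: ttgGCGCTAGGAGGCagccc
Trabd2b: ctaCCGCCAGAGGGCgtctg
Tmem270: cggTCGCGTGAGGGCagaag
Ankrd39: ctaCCACGGGAGGGCgccca
Their scores were 2.71, 8.38, 11.3, -0.677 and 11.7 in this order, so Trabd2b and Ankrd39 fell just short. Trabd2b, on chromosome 4, passed with the matrix learned from promoter sites; Ankrd39, on chromosome 1, did too, but its chromosome was among those that matrix was learned from. At the other end, the weakest members with a match were at Cebpa, which encodes the transcription factor C/EBP alpha, with a signal of 5.48, and at Capza1, Tspan7, Plekhg6 and Grip1, with 10.7 to 14.1. The Cebpa site had no summit within 50 bp in either replicate list.

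The motif of promoter sites tended to point into the gene. Of the 626 matches on X and the even-numbered autosomes 390, or 62.3% (95% Wilson interval 58.4 to 66.0), lay on the strand of the gene (exact binomial test against 50%, two-sided, adjusted p = 1.20e-09). Upstream of the TSS the share was 276 of 413, or 66.8%, and downstream 114 of 213, or 53.5%, a difference of 13.3 percentage points (Newcombe interval 5.24 to 21.3; Fisher's exact test, adjusted p = 0.00128). Over all optimal sites, motifs were on the plus strand of the chromosome in 49.8%. Among the members' motifs on all chromosomes this was 687 of 1486, or 46.2% (43.7 to 48.8, Wilson), an interval that leaves out 50%. The odd-numbered autosomes gave the matrix but no member to it, and they are included in the shares by position that follow.

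By position, the share on the gene's strand was highest where sites were densest. Over all chromosomes it was 133 of 175, or 76.0% (95% Wilson interval 69.2 to 81.7), at 50 to 100 bp upstream, 70.9% in the 50 bp before the TSS and 65.0% at 100 to 200 bp upstream. It was 54.2% (48.7 to 59.5) at 500 to 1000 bp upstream and 48.6% (42.2 to 55.2) at 500 to 1000 bp downstream, where the intervals include 50%. Between these, it was 66.7% (51.6 to 78.99) in the first 50 bp downstream and 45.5% (31.7 to 59.9) at 100 to 200 bp. At 200 to 500 bp downstream it was 60.3% (52.3 to 67.7). So the share did not fall steadily with distance and was not above 50% upstream alone. Near the TSS the chromosome sets differed. In the 50 bp before it, the share was 82.6% of 46 on X and the even-numbered autosomes and 63.4% of 71 on the odd-numbered ones. In the first 50 bp after it, these were 52.2% of 23 and 84.2% of 19. At 50 to 100 bp upstream the share was 78.2% of 78 and 74.2% of 97, so neither set was highest there. At 50 to 100 bp upstream it was 74.6% in the strongest peaks of replicate 1 alone and 74.0% in those of replicate 2, taken in the number of the optimal list. From 1 to 200 bp upstream it was 72.0% at CpG-rich promoters and 68.4% at other promoters, and it was 58.9% (48.9 to 68.3) for weak and 76.0% (69.97 to 81.2) for strong sites, the lowest and highest of 3 equal parts of the members with a match. Genes on the plus strand had 56.5% (52.8 to 60.0) and genes on the minus strand 63.6% (60.1 to 66.9), both over 50%. The 13.3-point difference between upstream and downstream was 7.82 with transcript starts in place of gene starts, and at the stricter motif threshold, with 83 matches in all, it did not pass (13.8 points, Fisher's exact test, adjusted p = 0.202).

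**Figure D4:**
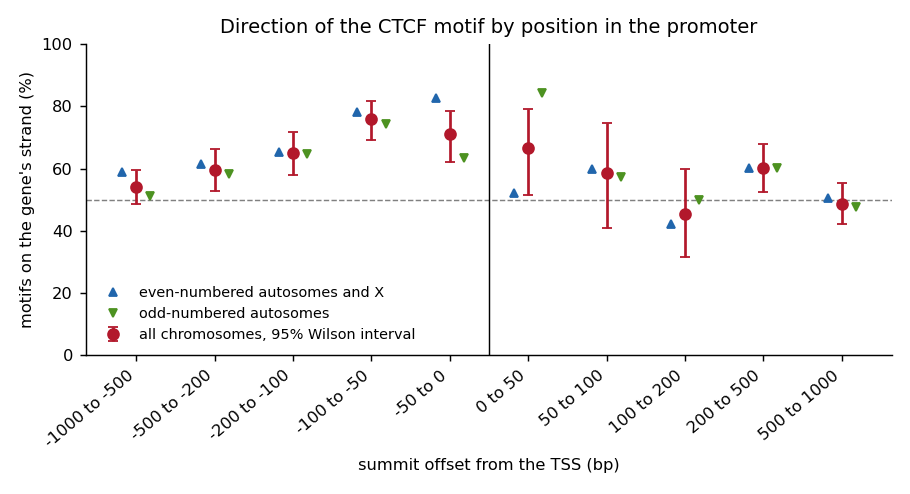
Share of motif matches on the strand of the gene (%, y axis) by offset of the summit from the TSS in bp (x axis), over all chromosomes with 95% Wilson intervals, and for even-numbered autosomes with X and odd-numbered autosomes apart. The share is 76.0% at 50 to 100 bp upstream and near 50%, the dashed line, beyond 500 bp on either side; at 200 to 500 bp downstream it is 60.3%.

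Both arrangements occurred among the strongest sites of the gene lists. Motifs within 200 bp upstream that pointed into the gene included those of Slc36a1, an amino acid transporter gene (412.2, 91 bp upstream), Rpl5, a ribosomal protein gene (365.0, 13 bp) and Hoxb5, a homeobox gene (314.7, 78 bp). Motifs within 200 bp upstream that pointed away included those of Slc39a13, a zinc transporter gene (423.9, 177 bp), Mrpl34, a mitochondrial ribosomal protein gene (350.2, 173 bp) and Elavl4, a neuronal RNA-binding protein gene (196.1, 52 bp). The matches are written along the motif, the first 3 on the strand of the gene and the last 3 on the opposite strand, and all 6 are GRCm38 sequence:
Slc36a1: cggCCGCCAGGTGGCgctgc
Rpl5: ctaCCGGCAGGGGGCgatag
Hoxb5: tcgCCGGGAGGTGGCgcgct
Slc39a13: tggCCACACGGGGGCgcgca
Mrpl34: tgaCCAGGAGAGGGCgaacg
Elavl4: ccgCCTCTAGGGGGCgcttg

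CpG-rich promoters carried a site more often than others. A promoter was called CpG-rich when the 250 bases before and 50 after the TSS had at least 50% G and C and a CG frequency of at least 0.6 of that expected from base composition. Of 9057 such genes 2946, or 32.5%, had a member, against 1910 of 12698 or 15.04% of the rest, where 22.3% of all genes did. The difference was 17.5 percentage points (Newcombe interval 16.3 to 18.6, Fisher's exact test, adjusted p = 8.63e-202). When only the strongest 10000 sites counted it was 2.43 points (Fisher's exact test, adjusted p = 3.16e-19). There all shares were lower, as 473 of the 9057 CpG-rich genes and 3.81% of all genes had a member. Members at CpG-rich promoters had a median signal of 48.3 and those at other promoters 55.97. On X and the even-numbered autosomes 23.2% (21.1 to 25.4) and 30.5% (27.6 to 33.6) of them held a match. At CpG-rich promoters the median summit lay 67 bp upstream and at other promoters 27 bp downstream. The 101 bases around the summit held a median of 63.4% G and C in members without a match, 60.4% in members with one and 51.5% in sites over 1 kb from a protein-coding TSS. How far base composition contributes to the lower motif share was not tested.

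Some members had another optimal summit within 1 kb. There were 1262 of these, 22.8% (21.7 to 23.9, Wilson), and the share over all optimal sites was 10.5%; the difference was not tested. The 2 genes with 4 members were Zbtb45, a zinc finger gene on chromosome 7, and Cgnl1, which encodes a protein of cell junctions, on chromosome 9. At Zbtb45 the signals were 155.9 and 272.7 downstream, 777 and 368 bp from the TSS, and 21.1 and 10.5 upstream, at 240 and 439 bp. The 2 strong sites had motifs on opposite strands, and the site 240 bp upstream also held a match. At Cgnl1 they were 65.4 and 33.0 downstream, at 956 and 318 bp, and 60.3 and 133.1 upstream, at 117 and 920 bp, and only the last held a match.

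Gene kinds differed in how often a promoter had a member. Of 32 lists, 15 had a share above that of all protein-coding genes, 22.3%. These lists were drawn up with earlier results on these data known, and no test was made. Clustered protocadherins, the neuronal adhesion genes, had the highest share, 36 of 57 or 63.2% (95% Wilson interval 50.2 to 74.5), with only 2 CpG-rich promoters among them. Their sites were weak, with a median of 32.3 for the strongest site of each gene against 57.9 over all genes with a member, and 3 of the 36 genes had a motif-bearing site. None of the 57 had a member among the strongest 10000 sites, where 3.81% of all genes did. Genes named Ube2, a name given mainly to ubiquitin-conjugating enzymes, had 17 of 37 or 45.9% (31.0 to 61.6). They were led by Ube2q1 (353.8, with 187.0 and 166.7 in the replicates), and the next was Ube2cbp (284.4), which the name took in although it encodes a protein that binds such an enzyme. Rab GTPases, the switches of vesicle traffic, had 21 of 59 or 35.6% (24.6 to 48.3), led by Rab32 (408.7). The Rab32 summit lay 19 bp upstream, with its motif on the gene's strand. CpG-rich promoters made up 62.2% of the Ube2 list and 62.7% of the Rab list, against 41.6% of all genes. Their part in these shares was not tested. Zinc fingers named Zfp had 113 of 394 or 28.7%, with a median of 51.8.

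Genes of translation and proteolysis varied in share, with intervals that overlapped, and in median signal. Neither difference was tested. Cytosolic ribosomal proteins had 31 of 86 genes or 36.0% (95% Wilson interval 26.7 to 46.6) and a median of 143.9. Mitochondrial ribosomal proteins had 18 of 78 or 23.1% (15.1 to 33.6), close to the background, with a median of 152.9. Another 9 mitochondrial ribosomal protein genes had only a site shared with a divergent promoter. Their strongest members were Mrpl34 (350.2), Mrps33 (341.5) and Mrpl17 (266.9). Proteasome subunits had 16 of 49 or 32.7% (21.2 to 46.6, which includes the background), with a median of 85.9. They were led by Psmd6 (369.2) and Psmc6 (319.2), both upstream with the motif on the gene's strand. Translation initiation factors had 12 of 54 or 22.2% (13.2 to 34.9), level with the background, and a median of 28.3. At 8 of the 54 a site shared with a divergent promoter was counted, which the rule kept from being a member. The count was 7 for cytosolic ribosomal proteins, 2 for proteasome subunits and 928 for all 21755 genes. Among CpG-rich genes only, 17.5% of this list had a member, against 32.5% of all such genes. That share was 37.7% for cytosolic and 23.2% for mitochondrial ribosomal proteins and 35.5% for proteasome subunits. All of these lists were CpG-rich in over 60% of genes, against 41.6% of all genes, and the part of that in their shares was not tested.

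**Figure D5:**
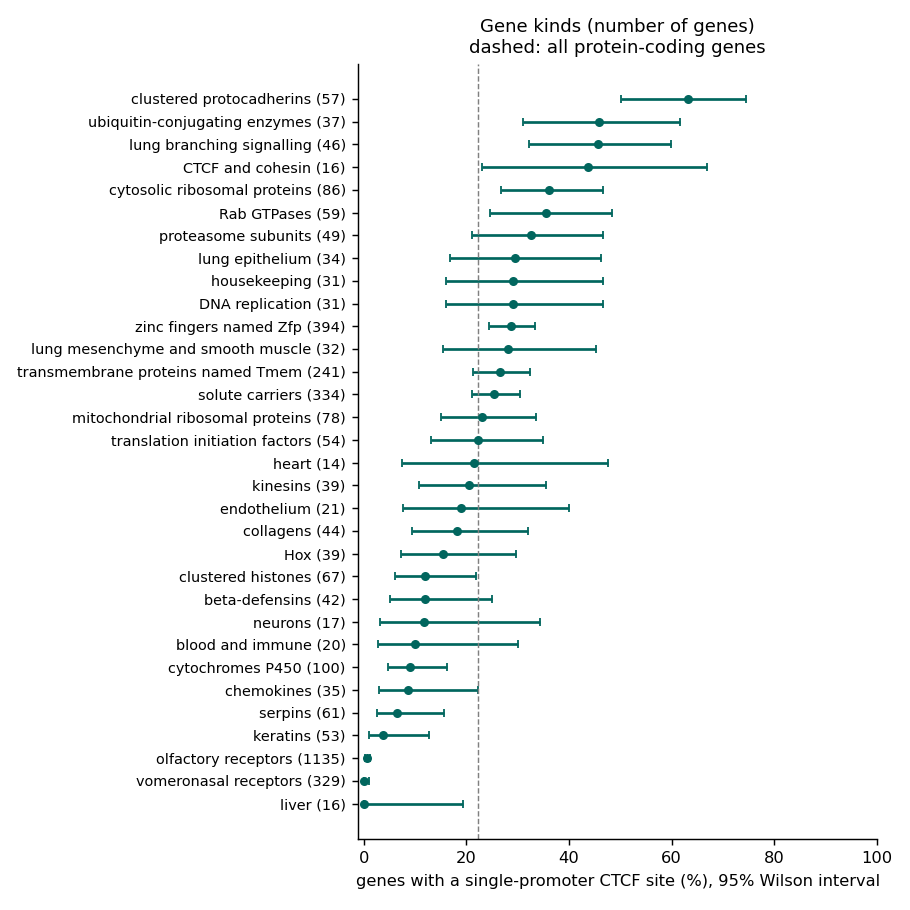
Share of genes (%, x axis) with a member as nearest TSS for each of the 32 gene lists (y axis, number of genes in brackets; the ubiquitin-conjugating list is the genes named Ube2), with 95% Wilson intervals; the dashed line is the 22.3% of all protein-coding genes. Clustered protocadherins lie highest at 63.2%, and vomeronasal receptors and liver genes had none.

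Among genes of the developing lung, those of branching signalling had 21 of 46 or 45.7% (95% Wilson interval 32.2 to 59.8). That list joins FGF, hedgehog, WNT, BMP and TGF-beta genes. Of its genes 58.7% were CpG-rich, against 41.6% of all genes, and the part of that in the share was not tested. Tgfb3, a TGF-beta ligand gene, had 352.2 with its summit 542 bp upstream and no match. Wnt7b, a WNT ligand gene of the epithelium, had 336.4 at 764 bp upstream, and Gli1, a target and effector of hedgehog signalling, 305.9 at 512 bp upstream, both with the motif on the gene's strand. All 3 lay over 500 bp from the TSS, outside the dense zone, and the list's median, 48.3, was below that of all genes with a member. Lung epithelium had 10 of 34 or 29.4% (16.8 to 46.2, which includes the background), led by the mucin gene Muc1 (328.6, 750 bp upstream) and Elf3, an epithelial transcription factor gene (277.5, 709 bp upstream). Their motifs can be compared with those of Wnt7b and Gli1, as all 4 lay on the gene's strand:
Muc1: tgaCCACTAGAGGGCaggcg
Elf3: tgaCCACTAGAGGGCagcag
Wnt7b: tcgCCACGGGATGGCagcat
Gli1: cgaCCAGCAGAGGGCgcgaa
Lung mesenchyme and smooth muscle had 9 of 32 or 28.1% (15.6 to 45.4, which also includes it), led by Col1a1, a fibrillar collagen gene (334.9, in an intron 938 bp downstream), Myh11, the smooth muscle myosin gene (210.8), and Tbx3, a T-box factor gene (199.6), with a list median of 189.4.

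Lists of other cell types and tissues were small. Endothelium had 4 of 21 (7.67 to 40%), heart 3 of 14 (7.57 to 47.6%), neurons 2 of 17 (3.29 to 34.3%) and blood and immune cells 2 of 20 (2.79 to 30.1%), and all 4 intervals include the background. Without replicate 1 endothelium had 28.6%, above the 22.7% of all genes in that list of peaks. Liver had 0 of 16, which allows a share of up to 19.4% (upper Wilson limit). Nrp1, a receptor gene of vessels and axons, led the endothelial list (200.6), and Ryr2, the calcium channel gene of heart muscle, led the heart list (176.9). Keratins had 2 of 53, serpins 4 of 61, chemokines 3 of 35 and cytochromes P450 9 of 100. Olfactory receptors had 7 of 1135, or 0.617% (0.299 to 1.27), and vomeronasal receptors 0 of 329 (upper limit 1.15%). In each of these 6 families, 9% of promoters or fewer were CpG-rich. Hox genes had 6 of 39 or 15.4% (7.25 to 29.7), an interval that includes the background, with a median of 199.3. In the strongest 10000 sites they had 10.3% (4.06 to 23.6), where all genes had 3.81%. Hox genes were not the highest list there, as cytosolic ribosomal proteins had 15.1%, Ube2 genes 13.5% and branching signalling genes 13.0%. Genes of CTCF and cohesin had 7 of 16 or 43.75% (23.1 to 66.8), among them Smc3 (191.1) and Pds5b (135.5), whose products form and regulate the cohesin ring. In that list 81.25% of genes were CpG-rich, and the part of that in the share was not tested.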

How the data were processed

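Peak lists were deposited for 2 CTCF ChIP-seq samples of embryonic lung, in narrowPeak format on mm10: 300000 peaks per replicate and from pooled reads, 54953 optimal and 53112 conservative IDR peaks. Per the deposited README, each replicate list came from its alignments and 1 shared control file. Aligner, peak caller and IDR threshold: not given in the sources used here. Signal values are the authors' own, as their peak caller gave them, and are not scaled between lists. The summit was the peak start plus the deposited offset, and the 10 optimal peaks outside chromosomes 1 to 19 and X were dropped. Genes came from GENCODE M21, with the 5′ end of each protein-coding gene as its TSS, and sequence from GRCm38.p6, the build of mm10.

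A 20-base matrix was grown from a 9-base seed over 15 rounds on the strongest 3000 sites of odd-numbered autosomes that were over 1 kb from a protein-coding TSS, dropping the lowest 30% each round. A match scored above the level that 1% of windows 1 kb from summits reach, with its centre within 50 bp of the summit. The 9 tests were Fisher's exact or exact binomial tests, two-sided, adjusted by Benjamini-Hochberg at 0.05, with 95% Wilson and Newcombe intervals. The functions were tested on simulated data. Replicate signals are those of the strongest summit within 50 bp. Gene lists were counted by gene entry, so 2 entries named Aldoa count separately.

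The members and the gene lists were chosen with earlier results of these data known. Named genes were the strongest of all members, by position and by list, the strongest without and the weakest with a match, those at the window's edge, those with most sites and those with the largest shifts between replicates. Of the 3 strongest of each list some are printed. Slc36a1, Slc39a13, Rpl5, Hoxb5, Mrpl34 and Elavl4 were picked among these, after their values were seen, to show both motif strands. Alternatives were other peak lists, each replicate left out, the strongest 10000 sites, other windows, matrices and thresholds; transcript starts, all chromosomes, 1 site per gene and the comparison within steps of signal were added after seeing the data. The software was scipy 1.17.1, matplotlib 3.10.9, numpy 2.4.6 and pandas 2.3.3 under Python 3.11.15.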

Additional observations from a re-analysis of the deposited data

How the results depend on the processing

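The direction and the call of the 9 tests held in the conservative list, in the strongest pooled peaks, without either replicate, with 500 bp and 2 kb windows and with merged peaks. Without replicate 1 and without replicate 2 the share of motifs on the gene's strand was 61.7% and 61.9%. Among the strongest 10000 sites, which hold 839 members, the signal difference to other sites turned to 0.195 percentage points and the upstream to downstream motif difference to -9.43. There the calls against divergent promoter sites were lost for signal (7.04 points) and for motif share (14.8 points); fewer sites enter these tests. At the stricter motif threshold the strand difference between upstream and downstream lost its call at 13.8 points, with fewer matches tested. With all transcript starts 8553 sites were members. The share on the gene's strand ranged from 55.9% (all transcript starts) to 72.3% (stricter threshold) and was 60.1% over all chromosomes and 63.2% with 1 site per gene. The number of gene lists above the share of all genes was 15 to 17 over 5 settings. No paired analysis was possible because the series has 1 group. Without read numbers, depth cannot be weighed, and peaks of whole lung cannot be assigned to cell types.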
